A study of Mus musculus with 4 samples.

Results

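The genes described here carry out cell division: the cyclins and kinases that start mitosis, the kinetochore and spindle that move the chromosomes, the checkpoint that times their separation, and the proteins that cut the daughter cells apart. The set is a list of 44 gene names drawn up by role, with earlier results of these data known. No measured value is a criterion for a name on the list, but measured values chose the reading of each gene. The probe set with the highest mean over all arrays, knockout arrays included, stood for its gene. Of the 44 genes, 43 were named alone by at least 1 probe set of the array. All 43 were tested, among 13271 genes tested of 18193 named. Ccnb1, which encodes cyclin B1, was not analysed here because no probe set named it alone. The cells were primary dermal fibroblasts taken from the skin of mice at postnatal day 1. The knockout group (adam9 -/-) lacked ADAM9, a membrane metalloprotease that sheds proteins from the cell surface, and the control group was wild type. Each genotype was represented by 2 isolations, with 1 array for each, and the cells received no treatment. The labels give the same number of plated cells and 48 hours of culture for both genotypes, and do not give the number of animals behind an isolation. P-values therefore measure the spread between isolations, which may be technical.

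Mitosis depends on waves of transcription and destruction. In G2, cyclin A and cyclin B activate the kinase CDK1, while Aurora and Polo kinases build the spindle. Kinetochores assemble on centromeric chromatin and catch microtubules, and unattached kinetochores hold back the anaphase-promoting complex through the spindle checkpoint. Transcription of this gene family peaks in G2 and M phase. The MuvB complex with B-Myb and FoxM1 binds a promoter element named CHR (cell cycle genes homology region), and the factor NF-Y binds nearby CCAAT boxes. In resting fibroblasts the same promoters are held down by MuvB together with pocket proteins. A culture of fibroblasts is a mixture of resting and dividing cells, so that in these bulk samples a larger share of dividing cells and more transcript per cell cannot be told apart.

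Values are the deposited expression values of 1 probe set per gene, taken as log2, and a difference is the knockout mean minus the wild-type mean, so that 1 unit is a 2-fold difference. No detection calls were used here, so a low value has no stated background. The targeted gene Adam9 read 8.33 and 8.55 in the knockout isolations and 11.58 and 11.70 in the wild-type isolations (difference -3.20, SE 0.147, limma adjusted p = 0.0242). The defining fibroblast markers Col1a1, Col1a2, Col3a1, Dcn and the rest of a list of 12 were all tested, and their median was between 12.33 and 12.93 on every array. No fibroblast marker was called. Of the 12, 2 read higher in wild-type isolation 2 than in isolation 1, against 6548 of all 13271 genes tested. The median gap of the 12 (isolation 2 minus isolation 1) was -0.31 in the wild type. Lum read 12.81 and 12.78 in the knockout isolations and 12.38 and 10.13 in the wild-type isolations. Pdgfra read 12.30 and 12.31 against 11.93 and 10.35, so that wild-type isolation 2 was the lowest for both genes. Fn1 was lower in the knockout, at 12.90 and 13.16 against 13.76 and 13.73. The summed linear level of the 12 markers was 107336 and 101391 in the knockout isolations and 108286 and 90511 in the wild-type isolations. Xist read 10.38 and 10.40 in the knockout isolations and 4.29 and 4.32 in the wild-type isolations, and the Y-linked Eif2s3y, Kdm5d and Uty stood the other way, so the genotype and the sex of the cells cannot be told apart. Of 17 macrophage and leukocyte markers, 13 were tested. Their summed linear level was 614 and 531 in the knockout isolations, 11820 in wild-type isolation 1 and 760 in wild-type isolation 2. Without wild-type isolation 1 the median difference of the mitosis genes was 1.93, and without wild-type isolation 2 it was 2.00, against 1.95 with all arrays. Of 10 keratinocyte markers 5 were tested, with a summed level of 263 and 219 in the knockout isolations and 491 and 512 in the wild-type isolations. Perp (-3.84) and Dsp (-2.49) were lower in the knockout without overlap. Krt10 (0.39) was higher without overlap, and Krt5 (-0.0063) and Lor (-0.013) were near 0. Over all genes tested, 2914 of 13271 were lower in the knockout without overlap. Of 10 skeletal muscle markers 5 were tested, with a summed level of 943 and 677 in the knockout isolations and 1156 and 2882 in the wild-type isolations. Acta1 (-1.35), Des (-0.40) and Ckm (-0.21) were lower in the knockout without overlap. Mylpf (0.12) and Chrna1 (0.03) overlapped between the genotypes. The part of these markers in the results was not tested.

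All 43 mitosis genes read higher in both knockout arrays than in both wild-type arrays. Over all genes tested, 23.0% did so. The median member stood at 8.25 and 8.13 in the knockout isolations and at 6.23 and 6.10 in the wild-type isolations. Their median difference was 1.95, a 3.88-fold higher level, where the median over all genes tested was 0.0027. The differences ran from 0.46 for Foxm1 to 2.53 for Depdc1a, and 42 of 43 members were at least 2-fold higher with no overlap between the genotypes, against 2.68% of all genes. Depdc1a had a wild-type mean under the level needed for testing and passed only through its knockout arrays. Without it, 42 of 42 members showed no overlap, with a median difference of 1.95.

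None of the 43 members passed the test after adjustment over all genes. In the limma fit 42 of 43 had an unadjusted p under 0.05 and a higher knockout mean, where 6.18% of all genes did. After Benjamini-Hochberg adjustment 0 members were called, beside 2 genes called higher among all genes tested (0.0151%). Adjusted p-values ran from 0.0520 for Cenpf to 0.452 for Foxm1. Under 0.1 were 19 members, among 39 genes higher in the knockout. With 2 isolations a genotype, a permutation of the arrays cannot give a two-sided exact p below 0.333, so the test rests on the spread that limma shares across genes.

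**Figure D1:**
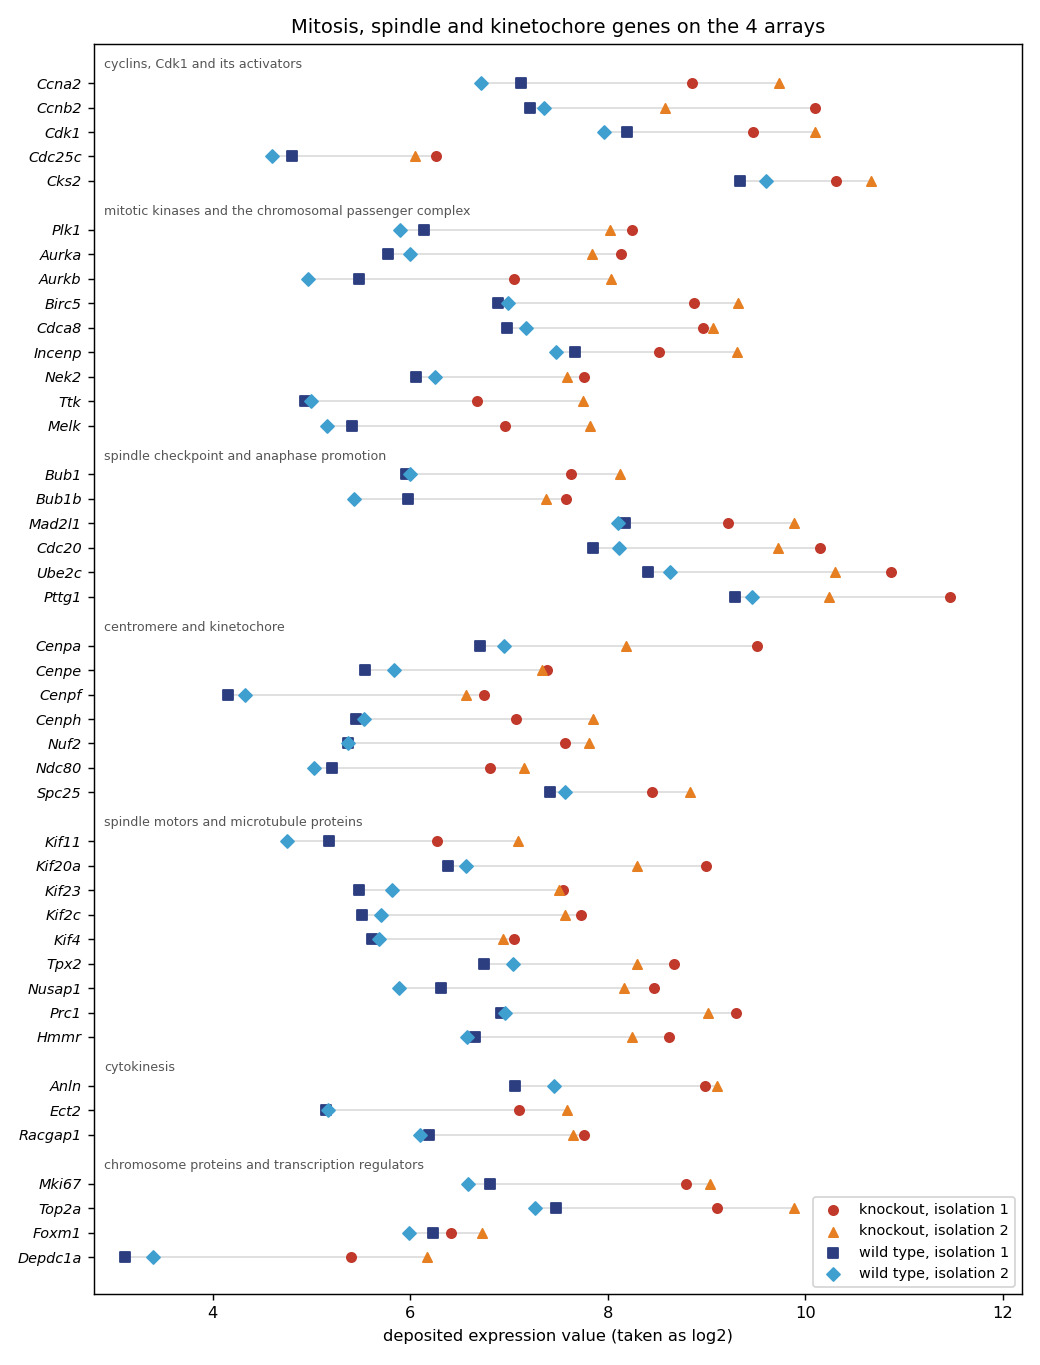
Deposited expression values (horizontal axis, log2) of the 43 measured mitosis genes, grouped by role; circles and triangles are knockout isolations 1 and 2, squares and diamonds wild-type isolations 1 and 2, and a line joins the 4 values of a gene. In every row both knockout values lie to the right of both wild-type values, with the narrowest gap (0.18) at Foxm1 and the widest (2.25) at Cenpf.

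Members took up much of the upper end of the ranking by difference. Of the 100 genes with the largest positive difference, 25 were members, and 41 of 43 were among the first 300. Depdc1a was 15th of 13271 and Cks2 was 367th. Foxm1 followed far behind as 1121st. The distance from the lowest knockout value to the highest wild-type value was over 1 in 38 members, and its median was 1.59. For no member was the gap between isolations of 1 genotype larger than the difference between genotypes. Among all genes it was larger in 7319 for the knockout and in 6181 for the wild type.

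The promoters of these genes are shown first, because shared CHR and CCAAT letters are the feature by which the family is known and the naming of the set did not use them. RefSeq windows of assembly GRCm38.p6, reaching from 250 bases before the annotated start to 50 bases after it, were at hand for 37 of the 44 members. The lines give the 120 bases before the start in gene orientation, 5′ to 3′. Capitals mark CHR letters (TTTGAA or the variant spelled TTCGAA) and the CCAAT box, either as such or as their reverse complement. The 8 genes come from the cyclin and CDK1, checkpoint and anaphase, spindle, and chromosome protein groups. Each has both a CHR and a CCAAT match in its window. No gene of the other roles and no window with CCAAT matches alone is among the 8.
Cdk1 (chr10:69352913-69353032, minus strand): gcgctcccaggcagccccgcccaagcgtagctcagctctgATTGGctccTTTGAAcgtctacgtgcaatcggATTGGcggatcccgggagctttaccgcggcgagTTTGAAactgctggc
Ccnb2 (chr9:70421555-70421674, minus strand): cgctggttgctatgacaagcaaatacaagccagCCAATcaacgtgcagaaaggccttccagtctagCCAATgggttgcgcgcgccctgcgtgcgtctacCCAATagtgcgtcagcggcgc
Ube2c (chr2:164769809-164769928, plus strand): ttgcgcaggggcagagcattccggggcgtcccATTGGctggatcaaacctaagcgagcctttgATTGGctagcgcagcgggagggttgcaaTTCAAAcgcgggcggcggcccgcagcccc
Cdc20 (chr4:118437344-118437463, minus strand): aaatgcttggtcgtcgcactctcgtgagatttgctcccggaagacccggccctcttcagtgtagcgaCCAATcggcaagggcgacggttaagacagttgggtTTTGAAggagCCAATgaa
Kif11 (chr19:37376262-37376381, plus strand): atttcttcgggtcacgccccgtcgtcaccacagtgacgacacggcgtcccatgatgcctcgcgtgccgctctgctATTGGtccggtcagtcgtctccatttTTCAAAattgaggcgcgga
Top2a (chr11:99024190-99024309, minus strand): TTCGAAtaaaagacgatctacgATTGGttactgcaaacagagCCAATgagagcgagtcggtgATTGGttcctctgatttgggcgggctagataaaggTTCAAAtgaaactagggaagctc
Mki67 (chr7:135716380-135716499, minus strand): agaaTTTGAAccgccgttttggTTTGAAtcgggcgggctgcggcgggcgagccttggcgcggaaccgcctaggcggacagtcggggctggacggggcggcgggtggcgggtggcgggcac
Depdc1a (chr3:159495313-159495432, plus strand): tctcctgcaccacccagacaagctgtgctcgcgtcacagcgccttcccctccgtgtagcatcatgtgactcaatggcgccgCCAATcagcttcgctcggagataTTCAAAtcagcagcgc

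Of the 37 members with a window, 26 (70.3%) held a CHR match on either strand, against 16.2% of 10627 tested genes with a window and 21.7% of 27025 genes in the whole table. A CCAAT match was found in 28 (75.7%), against 42.6% of tested genes. Both stood in 1 window in 23 members (62.2%), where 6.60% of tested genes had both. Windows with at least 2 CCAAT matches were 19 of 37 (51.4%), against 16.1%. Of the 26 members with CHR letters, 24 had a match between position -40 and position 50, counted from the first transcribed base as 1. Positions were not counted in other genes, so this place was not shown to be particular to the members. A match of letters is a description, and occupancy by a factor was not measured.

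The printed stretches show the spacing. In Cdk1 a CHR match began at -15, behind CCAAT matches on the opposite strand at -80 and -48. Ube2c had its CHR on the opposite strand at -29, with CCAAT matches at -88 and -57. Ccnb2 carried 3 CCAAT boxes at -87, -54 and -21, and its CHR matches at 5 and -167 were outside the stretch shown. A pair of CCAAT matches 31 to 34 bases apart was found in 9 members, namely Aurka, Ccnb1, Ccnb2, Cdca8, Cdk1, Hmmr, Nek2, Spc25 and Ube2c. This spacing was not counted in other genes, so the 9 have no share to stand beside. Top2a held 4 CHR and 6 CCAAT matches in its window, the most CHR matches of the genes printed. In Mki67 the CHR matches were farther upstream, at -116 and -98. Depdc1a, Kif11 and Cdc20 each had a single CHR, at -16, -19 and -18.

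A window with neither motif was found for 6 members, Birc5, Melk, Mad2l1, Pttg1, Nuf2 and Nusap1. The stretches of Nuf2 and Birc5 are shown for contrast, since both were among the members with differences over 2 (2.32 and 2.16).
Nuf2 (chr1:169531465-169531584, minus strand): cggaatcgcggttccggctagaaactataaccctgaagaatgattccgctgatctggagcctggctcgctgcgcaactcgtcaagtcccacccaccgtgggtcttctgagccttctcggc
Birc5 (chr11:117849117-117849236, plus strand): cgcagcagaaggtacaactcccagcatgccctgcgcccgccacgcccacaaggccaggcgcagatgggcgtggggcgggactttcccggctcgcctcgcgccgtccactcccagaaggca

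No match says only that these letters are not in this window. The median difference was 1.99 in the 26 measured members with a CHR match (range 1.15 to 2.53) and 1.82 in the 10 with a window but no match (1.02 to 2.32). For the CCAAT box it was 1.95 in 27 members with a match and 2.04 in 9 without. The ranges of members with and without each motif overlapped.

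**Figure D2:**
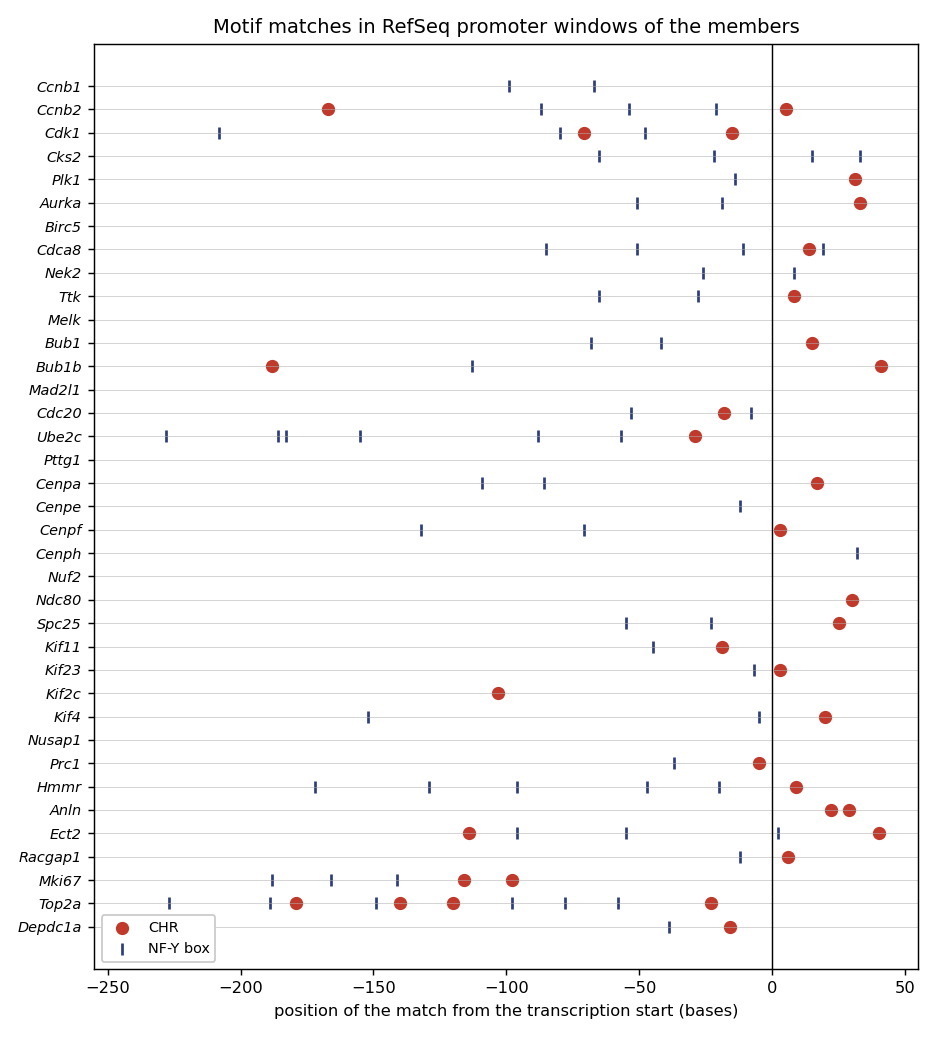
Position of each motif match (horizontal axis, bases from the transcription start) in the promoter window of 37 members, with 1 row per gene (its first RefSeq window); circles are CHR matches and ticks CCAAT (NF-Y) boxes on either strand. Circles gather around the start and ticks upstream of them, and 6 rows are empty; Ccnb1 is shown although its expression was not analysed here.

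The cyclins and the CDK1 group, which trigger entry into mitosis, had a median difference of 1.71 over 5 measured genes. Ccna2, the cyclin of S phase and G2, read 8.85 and 9.73 in the knockout isolations and 7.12 and 6.72 in the wild-type isolations (difference 2.37, SE 0.348, limma adjusted p = 0.184). Ccnb2, a partner of CDK1 in mitosis, read 10.09 and 8.58 against 7.22 and 7.35 (2.05, SE 0.528, adjusted p = 0.338). Cdk1 itself read 9.48 and 10.10 against 8.20 and 7.96 (1.71, SE 0.255, adjusted p = 0.184). All of these groups were apart, and Ccnb2 had the widest spread between the knockout isolations of any member. Cdc25c, the phosphatase that releases CDK1 from inhibition, read 6.26 and 6.05 against 4.80 and 4.60 (1.45, SE 0.156, adjusted p = 0.104). Cks2, a small subunit of cyclin-dependent kinases, read 10.31 and 10.67 against 9.34 and 9.60, the smallest difference of this group (1.02, SE 0.192, adjusted p = 0.243). Without knockout isolation 1 the difference of Ccnb2 was 1.30.

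Mitotic kinases and their partners had a median difference of 2.11 over 9 genes. Plk1, the Polo kinase that acts at centrosomes and kinetochores, read 8.25 and 8.02 in the knockout isolations and 6.14 and 5.89 in the wild-type isolations (2.12, SE 0.165, limma adjusted p = 0.0693). Aurka, the Aurora kinase of the spindle poles, read 8.14 and 7.84 against 5.78 and 5.99 (2.10, SE 0.173, adjusted p = 0.0703). Nek2, which separates the centrosomes, read 7.75 and 7.58 against 6.05 and 6.25 (1.52, SE 0.149, adjusted p = 0.0823). These 3 differed by no more than 0.30 between the knockout isolations. Ttk, the checkpoint kinase also called MPS1, read 6.67 and 7.75 against 4.93 and 4.998 (2.25, SE 0.384, adjusted p = 0.218). Its knockout isolations lay over 1 unit apart. Melk, a kinase of dividing cells, read 6.96 and 7.82 against 5.41 and 5.16 (2.11, SE 0.327, adjusted p = 0.191).

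The chromosomal passenger complex corrects wrong attachments and then moves to the cleavage furrow. Its kinase Aurkb read 7.05 and 8.03 in the knockout isolations and 5.48 and 4.96 in the wild-type isolations, the largest difference among the kinases and their partners (2.31, SE 0.394, limma adjusted p = 0.218). Survivin, encoded by Birc5, read 8.88 and 9.32 against 6.89 and 6.98 (2.16, SE 0.194, adjusted p = 0.0819). Borealin, encoded by Cdca8, read 8.97 and 9.07 against 6.98 and 7.17 (1.94, SE 0.140, adjusted p = 0.0647). Borealin had nearly the same level in both knockout isolations, whereas Aurkb was spread in both genotypes. The scaffold Incenp read 8.52 and 9.30 against 7.67 and 7.48, the smallest difference of the 4 subunits (1.34, SE 0.299, adjusted p = 0.297).

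Checkpoint and anaphase genes had a median difference of 1.83 over 6 genes. Bub1, a checkpoint kinase, read 7.62 and 8.13 in the knockout isolations and 5.96 and 5.9996 in the wild-type isolations (1.90, SE 0.208, limma adjusted p = 0.108). Bub1b, which encodes the checkpoint protein BubR1, read 7.58 and 7.37 against 5.98 and 5.43 (1.77, SE 0.233, adjusted p = 0.154). Mad2l1, whose product binds and blocks CDC20, read 9.21 and 9.89 against 8.18 and 8.10 (1.41, SE 0.259, adjusted p = 0.236). BubR1 was the member with the widest gap between the wild-type isolations (-0.55), and its groups were still far apart. On the side that the checkpoint restrains, Cdc20 read 10.15 and 9.72 against 7.85 and 8.11 (1.95, SE 0.206, adjusted p = 0.102). Ube2c, the ubiquitin-conjugating enzyme of the anaphase-promoting complex, read 10.87 and 10.30 against 8.41 and 8.63 (2.07, SE 0.238, adjusted p = 0.116). Pttg1, or securin, the guardian of sister chromatid cohesion, read 11.47 and 10.24 against 9.29 and 9.46 (1.48, SE 0.437, adjusted p = 0.384). Without knockout isolation 1 the difference of securin was 0.86.

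Centromere and kinetochore genes had a median difference of 1.97 over 7 genes, and they include the members nearest to the threshold. Cenpf, a large protein of the outer kinetochore, read 6.74 and 6.57 in the knockout isolations and 4.16 and 4.32 in the wild-type isolations. Its difference of 2.42 is a 5.34-fold higher level (SE 0.145, limma adjusted p = 0.0520). Its wild-type values sat at the level needed for testing, 4.17, so the fold depends on a background that is not known. Nuf2 and Ndc80 are subunits of the complex that grips microtubule ends. Nuf2 read 7.57 and 7.81, and had the same deposited value, 5.37, in both wild-type isolations (2.32, SE 0.144, adjusted p = 0.0556). Such a tie in the wild type was seen for 55 of the 13271 genes. Ndc80 read 6.80 and 7.15 against 5.20 and 5.02 (1.86, SE 0.179, adjusted p = 0.0823). Spc25, of the same complex, read 8.45 and 8.83 against 7.42 and 7.57 (1.15, SE 0.183, adjusted p = 0.199), the smallest difference of the group.

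Cenpa encodes the histone variant that marks the centromere. It read 9.51 and 8.18 in the knockout isolations and 6.70 and 6.95 in the wild-type isolations, with a difference of 2.02 (SE 0.470, limma adjusted p = 0.304). The kinesin of the kinetochore, Cenpe, read 7.38 and 7.34 against 5.54 and 5.84 (1.67, SE 0.157, adjusted p = 0.0823). Cenph, of the inner kinetochore, read 7.07 and 7.85 against 5.45 and 5.53 (1.97, SE 0.293, adjusted p = 0.184). Cenpe had nearly equal knockout isolations, whereas those of Cenpa lay 1.32 units apart with isolation 1 above (isolation 2 minus isolation 1, -1.32).

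Spindle motors and microtubule proteins had a median difference of 1.88 over 9 genes, and 8 of these read higher in knockout isolation 1 than in isolation 2. Prc1, which bundles microtubules at the midzone, read 9.30 and 9.02 in the knockout isolations and 6.92 and 6.96 in the wild-type isolations (2.22, SE 0.154, limma adjusted p = 0.0647). Nusap1, a microtubule protein of spindle and nucleolus, read 8.47 and 8.17 against 6.32 and 5.88 (2.22, SE 0.214, adjusted p = 0.0823). Kif2c, a kinesin that takes microtubules apart, read 7.73 and 7.57 against 5.51 and 5.70 (2.04, SE 0.147, adjusted p = 0.0647). In each of these 3 genes the gap between the genotypes was far wider than the gaps between isolations. Kif20a, a motor of late mitosis, read 8.996 and 8.29 against 6.38 and 6.57 (2.17, SE 0.274, adjusted p = 0.142). Kif23, a motor subunit of the midzone, read 7.55 and 7.50 against 5.48 and 5.82 (1.88, SE 0.165, adjusted p = 0.0797).

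The remaining spindle genes had smaller differences. Hmmr, which binds microtubules and hyaluronan, read 8.62 and 8.24 in the knockout isolations and 6.65 and 6.58 in the wild-type isolations (1.81, SE 0.176, limma adjusted p = 0.0823). Tpx2, the activator of Aurora A on spindle microtubules, read 8.67 and 8.30 against 6.75 and 7.04 (1.59, SE 0.199, adjusted p = 0.141). Kif11, the motor that pushes the poles apart, read 6.27 and 7.09 against 5.18 and 4.75 (1.72, SE 0.334, adjusted p = 0.260). Kif11 was the only spindle gene of the 9 with its higher knockout value in isolation 2. The chromokinesin Kif4, on the X chromosome, had the smallest difference of the group at 7.05 and 6.94 against 5.61 and 5.69 (1.35, SE 0.129, adjusted p = 0.0823).

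Cytokinesis genes had a median difference of 1.79 over 3 genes. Ect2, the exchange factor that activates RhoA at the furrow, read 7.10 and 7.59 in the knockout isolations and 5.15 and 5.17 in the wild-type isolations (2.19, SE 0.204, limma adjusted p = 0.0823). Anln, the scaffold anillin, read 8.98 and 9.10 against 7.06 and 7.46 (1.79, SE 0.186, adjusted p = 0.0976). Racgap1, the partner of Kif23 in the centralspindlin complex, read 7.76 and 7.65 against 6.19 and 6.10 (1.56, SE 0.129, adjusted p = 0.0703). All 3 had adjusted p-values under 0.1, with groups well apart.

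Among chromosome proteins and regulators, the differences were both among the largest and the smallest of the set. Mki67, which coats mitotic chromosomes and serves as a marker of cycling cells, read 8.80 and 9.03 in the knockout isolations and 6.81 and 6.59 in the wild-type isolations (2.22, SE 0.162, limma adjusted p = 0.0655). Top2a, which untangles sister DNA, read 9.10 and 9.89 against 7.48 and 7.26 (2.12, SE 0.300, adjusted p = 0.175). Depdc1a read 5.40 and 6.17 against 3.11 and 3.40, with wild-type values among the lowest of the set (2.53, SE 0.303, adjusted p = 0.134). Foxm1 encodes a transcription factor that acts on this gene family. It read 6.41 and 6.72 against 6.23 and 5.98, and its groups were 0.18 apart (0.46, SE 0.180, adjusted p = 0.452). Its other probe sets above the level needed for testing gave 0.70 and 0.85, under the value used for every other member. Without knockout isolation 2 the difference of Foxm1 was 0.30.

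Between isolations of 1 genotype, the members were not moved as a block. In the knockout, 22 members were higher in isolation 2 and 21 in isolation 1. The gap (isolation 2 minus isolation 1) ran from -1.52 to 1.08 and was over 1 unit in 4 members (9.30%), against 3.96% of all genes. These 4 were Ccnb2 (-1.52), Cenpa (-1.32), Pttg1 (-1.23) and Ttk (1.08). In the wild type no member had a gap over 1 unit, and the range was -0.55 to 0.40. The members with the largest wild-type gaps were Bub1b (-0.55), Aurkb (-0.52) and Nusap1 (-0.43). The standard deviation was larger in the knockout than in the wild type for 34 of 43 members, with medians of 0.263 and 0.146 (n = 2 each). Each isolation is a single array, so these gaps have no error of their own.

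By role, the knockout gaps leaned to different sides. Among all 13271 genes tested, 6126 were higher in knockout isolation 2. In isolation 1, 8 of 9 spindle genes (median gap -0.28) and 4 of 6 checkpoint and anaphase genes (median gap -0.32) stood higher. Beside the 3 with the largest gaps, Kif20a (-0.70), Ube2c (-0.57) and Cdc20 (-0.43) were of this kind. Genes higher in isolation 2 included Aurkb (0.98), Ccna2 (0.88), Melk (0.86), Kif11 (0.82), Incenp (0.79), Top2a (0.78) and all 4 chromosome proteins and regulators. Genes of DNA replication, which act earlier in the cycle, stood on that side throughout. All 37 tested replication genes were higher in knockout isolation 2, by 0.23 to 2.89 (median 1.25), and 27 of them by over 1 unit. The split of the mitosis genes and the single direction of the replication genes were not tested against each other, since each rests on 1 pair of arrays.

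**Figure D3:**
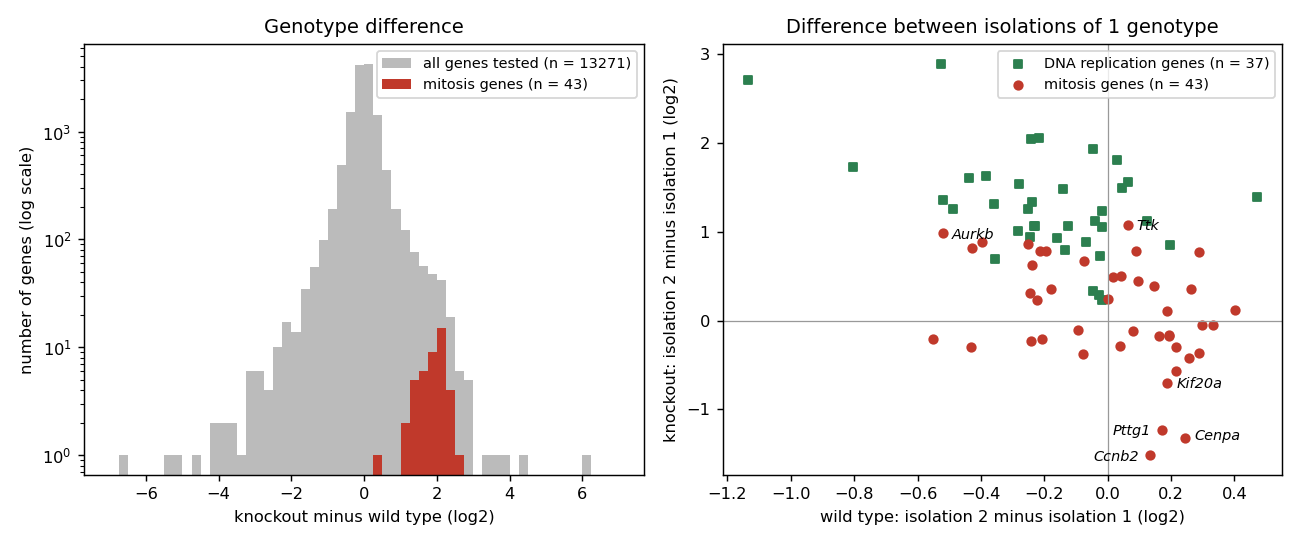
Left, number of genes (log axis) by knockout minus wild-type difference (log2) for all 13271 genes tested and for the 43 mitosis genes; right, difference between isolations in the wild type (horizontal) and in the knockout (vertical), both isolation 2 minus isolation 1 in log2, for 43 mitosis genes and 37 DNA replication genes. The mitosis genes lie between 0.46 and 2.53 on the left, and on the right they lie on both sides of 0 in the knockout, whereas every replication gene is above 0.

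The array carried 95 probe sets for the 43 members, which lets the same transcript be read more than once. Of 75 probe sets with a mean above the level needed for testing, 75 had a higher knockout mean and 74 had no overlap between the genotypes. Their median difference was 1.77. The 32 of these that did not represent their gene were all higher in the knockout too, with a median of 1.39. Over all genes tested, each read by its brightest probe set, 23.0% were higher without overlap. No such share was counted over single or dimmer probe sets. The level was a mean over knockout and wild-type arrays, so some probe sets passed only through the knockout. They belonged to Depdc1a, Cenpf and Spc25. The counts above include them, and no count was made without them. One of Cenpf read 5.05 and 4.86 in the knockout isolations and 3.51 and 3.66 in the wild-type isolations. The 20 dimmer probe sets had a median difference of 0.22, and 17 of them were positive, 12 without overlap. The largest difference among the dimmer ones was 1.58, for a probe set of Kif23. The 3 negative ones belonged to Cenpa (-0.30, lower in the knockout without overlap), Top2a (-0.12) and Kif23 (-0.037). All of these were under the level needed for testing, whose values have no stated background.

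Probe sets of 1 gene differed in size. Among 21 members with several probe sets above that level, 7 had differences that spread by over 1 unit. Cenpf ranged from 0.50 to 2.42, Tpx2 from 0.18 to 1.74 and Kif2c from 0.42 to 2.04. Cdc20 ranged from 0.77 to 1.95, Incenp from 0.20 to 1.34, Pttg1 from 0.47 to 1.73 and Top2a from 0.97 to 2.12. For all 7 the directions were the same over these probe sets. With the mean over all probe sets of a gene in place of the brightest, 42 members were tested and their median difference was 1.42. That choice lowered the difference by over 1.5 times in 12 members, and all stayed above 0. These were Cenpa (0.60), Top2a (0.99), Incenp (0.67), Kif2c (1.03), Nusap1 (1.22), Cenpf (1.43), Spc25 (0.71), Nek2 (0.96), Tpx2 (0.97), Aurka (1.18), Bub1 (1.23) and Ttk (1.40).

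**Figure D4:**
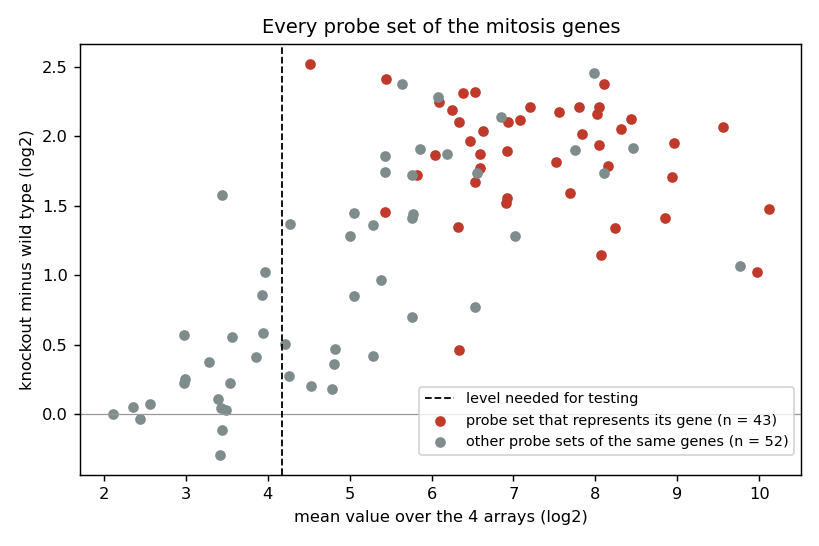
Knockout minus wild-type difference (vertical axis, log2) against mean value over the 4 arrays (horizontal axis, log2) for all 95 probe sets of the mitosis genes; red points represent their gene, grey points are its other probe sets, and the dashed line is the level needed for testing (4.17). Right of the line every point is above 0, and the points to the left reach from -0.30 to 1.58 with a median of 0.22.

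Other genes of the same pathway were read from lists that do not include the members, and no gene in them was called in either direction. The counts without overlap in these lists stand beside the 23.0% of all genes that were higher in this way. Of 40 other G2 and M phase genes tested, 37 had a higher knockout mean, 36 of them without overlap, and the median difference was 1.32. Ska1, of the complex that tracks microtubule ends, read 6.24 and 6.77 in the knockout isolations and 4.52 and 3.60 in the wild-type isolations (2.44, SE 0.376, limma adjusted p = 0.191). Its wild-type mean, 4.06, was under the level needed for testing, so Ska1 passed only through its knockout arrays. Pbk, a mitotic kinase, read 8.50 and 9.65 against 6.71 and 6.66 (2.39, SE 0.407, adjusted p = 0.219). In 29 other kinetochore genes, a list that also holds Ska1, 27 were higher and 25 of these without overlap (median 1.16). Ska3 in this list also passed only through its knockout arrays, with a wild-type mean of 3.86. Spc24, the partner of Spc25, read 7.21 and 7.43 against 5.34 and 5.32 (1.99, SE 0.140, adjusted p = 0.0647). The member Spc25, of the same complex, had the smaller difference of 1.15.

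Lists that also hold genes with general roles beyond mitosis had smaller medians. For 23 condensin and cohesin genes the median was 0.54, and 15 stood higher and 0 lower without overlap. Of the 23, 10 were at least 2-fold higher without overlap, against 2.68% of all genes, so the median hides a mixed list. Ncapg2, of condensin II, read 7.58 and 9.04 in the knockout isolations and 6.40 and 5.85 in the wild-type isolations, and Sgo2a, a protector of centromeric cohesion, read 7.12 and 7.82 against 5.42 and 5.59. For 20 centriole and centrosome genes the median was 0.38 and 13 stood higher without overlap. Cep55, which works in abscission, had a difference of 1.99 and Plk4, the kinase of centriole duplication, of 1.73. For 17 genes of the anaphase-promoting complex, whose core subunits are present through the cycle, the median was 0.19, and 11 stood higher and 0 lower without overlap. Fbxo5, an inhibitor of that complex, was far above the rest at 2.12 and Cdc26 followed at 0.51. Fbxo5 read 7.27 and 8.998 in the knockout isolations and 6.29 and 5.74 in the wild-type isolations (SE 0.623).

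The regulators of these promoters were nearer to the median of all genes. Over 16 genes of MuvB, B-Myb, E2F, pocket proteins and NF-Y the median difference was 0.16, with 6 higher and 2 lower without overlap (23.0% of all genes were higher in this way). The lower genes were the pocket protein genes Rb1, at 7.59 and 6.95 in the knockout isolations and 7.98 and 8.44 in the wild-type isolations (-0.93, SE 0.291, limma adjusted p = 0.392), and Rbl2 (-0.24). Rbl1, the pocket protein p107, read 6.96 and 7.95 in the knockout isolations and 6.13 and 5.45 in the wild-type isolations (1.67, SE 0.425, limma adjusted p = 0.336). Mybl2, which encodes B-Myb, read 4.39 and 6.20 against 4.11 and 4.58, with overlap between the genotypes (0.96, SE 0.644, adjusted p = 0.608). For 37 DNA replication genes the median was 1.502 and 36 stood higher without overlap, led by Cdc6 (2.77) and Tk1 (2.54). Cdc6 read 5.65 and 8.35 in the knockout isolations and 4.80 and 3.66 in the wild-type isolations (SE 0.998). In 11 housekeeping genes the median was -0.02, with 3 higher and 1 lower without overlap, a share of higher genes near the 23.0% of all genes. Gusb (-0.49), the lower one, and Ywhaz (0.31) were farthest from 0.

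The lists also differed in promoter letters. A CHR match was found in 77.4% of 31 other G2 and M phase genes with a window, in 13 of 26 other kinetochore genes and in 19.4% of 31 replication genes, beside 70.3% of the members. The CCAAT box was less uneven, at 74.2%, 69.2% and 58.1% in these lists and 75.7% in the members.

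**Figure D5:**
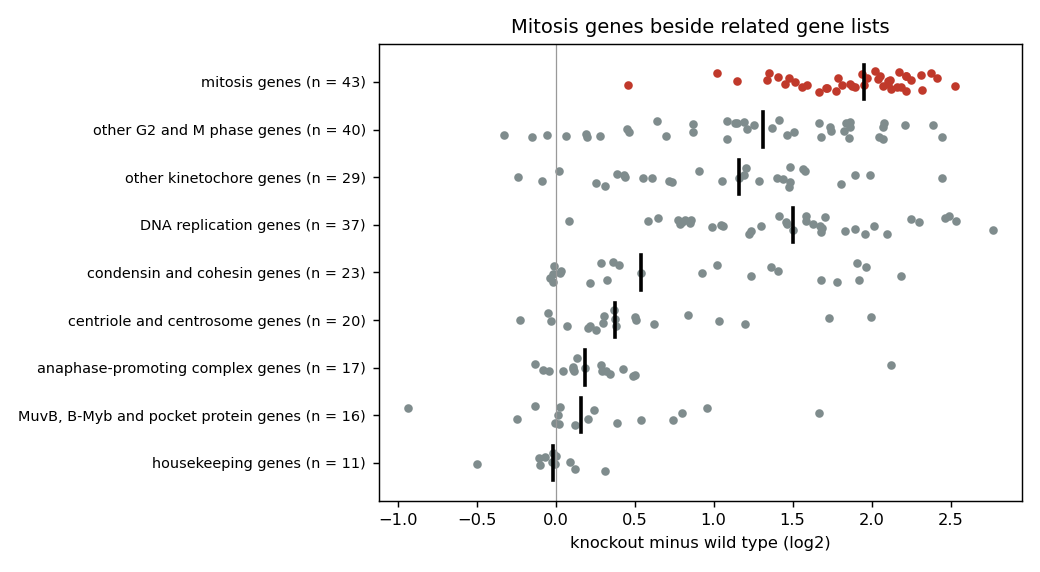
Knockout minus wild-type difference (horizontal axis, log2) of each tested gene in 9 lists (rows, with the number of genes), where a vertical bar is the median of the list; points are shifted up and down only to keep them apart. Mitosis genes have the highest median (1.95), followed by replication (1.502) and other G2 and M phase genes (1.32), and housekeeping genes lie around 0.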

How the data were processed

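Total RNA of 4 cultures was measured on Affymetrix arrays after biotin labelling, per the labels' protocols. The authors made the deposited table with Affymetrix Expression Console, per the submitters' processing notes. Which version and summary method served, and in which log base, was not given in the sources used. The values as deposited by the authors, 1 for each probe set on each array, ran from 1.70 to 14.4 with array medians of 4.83 to 4.87 and were taken as log2 on that ground. Of 45101 probe sets, 34945 named 1 gene. The brightest probe set on average stood for a gene, and genes with a mean above the 40th percentile (4.17) were tested. The test was limma 3.58.1 (R 4.3.3; lmFit and eBayes without a block), with p-values adjusted by Benjamini-Hochberg over 13271 genes and called under 0.05. The fit was tested on simulated data. Motifs were counted in RefSeq promoter windows on both strands; windows of Ccna2, Cdc25c, Aurkb, Incenp, Kif20a, Tpx2 and Foxm1 were not used here. A gene with several windows counted once if any window matched.

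The members and all gene lists were chosen with earlier results of these data known. The rule named the 2 largest and the smallest difference of each role, members with an adjusted p under 0.1, wide gaps between isolations or discordant probe sets, and the 2 genes farthest from 0 in each related list; all measured members are printed. The number of arrays limits the precision. Alternatives covered the filter, normalization, variance model, array weights, choice of probe set, a replicate block and each array left out.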

Additional observations from a re-analysis of the deposited data

How the results depend on the processing

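In the 14 alternatives no member changed direction, and every member tested kept its groups apart. The count was 43 in most settings and 40 under a filter at the 60th percentile. It was 42 with the mean over probe sets or without probe sets ending in _x_at or _s_at. A block, the variance model, array weights and the filter leave the values of a member as they are. Dropping an array cannot make separate groups overlap. Only the further normalizations and the choices of probe set could have changed these outcomes. The number of members called was 1 after a further quantile normalization, 1 after median centring and 1 after cyclic loess (Cenpf each time), and 2 with array weights (Cenpf and Nuf2). Over the alternatives the adjusted p ran from 0.0356 to 0.261 for Cenpf and from 0.0471 to 0.311 for Nuf2. The median difference of the members was 1.42 with the mean over probe sets, which adds dimmer probe sets. Leaving out 1 array at a time, it ran from 1.88 to 2.00 with 0 members called, and the number of genes called over the whole array was 0 to 0 instead of 9; the lone array of a genotype was then assumed to vary like the others. With the isolation number as a replicate block, 2 genes were called in all and 0 members, with a median of 1.95; gaps between isolations correlated across genes by 0.116 over only 2 pairs, so the numbers were not shown to pair the samples. Apart from the mean over probe sets, differences moved by over 1.5 times without a single array in Ccnb2, Pttg1 and Foxm1.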
